A study of Mus musculus with 6 samples.

Results

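The interferon-inducible GTPases described here are 10 genes taken by name from 55291 in the deposited table. Of these, 8 belong to the immunity-related GTPases (IRG): Gm4841, BC023105, Iigp1, Tgtp1, Tgtp2, Irgm1, Irgm2 and Igtp. Gbp2 and Gbp3 belong to the guanylate-binding proteins (GBP). The set was chosen by the TSK against WT difference of Gm4841 in these same libraries, with the others added as its relatives, so the TSK and WT values of the members are given as a description and are no test of them.

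Bulk RNA was sequenced from shaved dorsal skin of 3 TSK (tight skin) mice and 3 WT mice, with 1 library per mouse. All 6 mice were C57BL/6, and the WT mice were littermates of the TSK mice. TSK is a spontaneous allele of Fbn1, the gene of the microfibril protein fibrillin 1, with a duplication inside the gene that every tissue inherits. It is carried on 1 chromosome copy, since embryos with the allele on both copies die. The labels give the same age for both groups, 6 to 8 weeks, and the methods name the upper end of that range. The labels call all 6 mice female and the methods call them male. The Y-linked genes Ddx3y, Uty and Eif2s3y were read in every library, at 56.7 to 72.7, 27.4 to 36.4 and 27.0 to 39.0 CPM (counts scaled to 1000000 per library), while Xist, the RNA of the inactive X chromosome, stood at 2.57 to 4.58 CPM, so the libraries go against the label. Fbn1 was at 272 ± 14.1 CPM in WT and 1943 ± 377 CPM in TSK (SD, n = 3), with no overlap.

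Interferon-inducible GTPases are large intracellular enzymes that cells make after exposure to interferons, above all interferon-gamma. They gather on the membrane of vacuoles that hold parasites or bacteria and help to break it. In mice the IRG proteins fall into an effector group that loads onto such vacuoles (Iigp1, also called Irga6, and the pair Tgtp1 and Tgtp2, also called Irgb6) and a regulatory group (Irgm1, Irgm2 and Igtp, also called Irgm3) that sits on the membranes of the cell and keeps the effectors inactive there. GBP proteins coat the same vacuoles and free bacteria. Interferon switches these genes on through transcription factors that bind short motifs in their promoters.

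These motifs are shown for the members whose promoters could be read. RefSeq start sites on GRCm38.p6 gave windows of 300 bases (250 before the start and 50 after) for 7 of the 10 members, and Gbp3 had more than 1. Windows of Gm4841, BC023105 and Iigp1 were not analysed here. All 7 members held the letters GAAA, any 2 bases and GAAA again, the core of an interferon-stimulated response element, on either strand in at least 1 window. Counted by window, 7 of their 8 windows held it, against 3.44% of all 32851 windows, and the second window of Gbp3 did not. TTCNNNGAA, the core of a gamma-activated site, was present in 4 members (Tgtp1, Tgtp2, Irgm2 and Igtp), against 8.30% of all windows. The stretches around the first motif are printed 5′ to 3′ on the strand of the gene, with that motif in capitals. In Gbp2 and Gbp3 it reads on the opposite strand, and in Irgm1 and Gbp3 it occurs as overlapping copies. The motifs of Irgm1 and Gbp2 lie in an exon of the GENCODE M21 annotation, so only 30 bases are shown for them. The lines for Tgtp1 and Tgtp2, and those for Irgm2 and Igtp, show how alike the promoters of the near copies are.
Tgtp1, chr11:48992290-48992347, minus strand: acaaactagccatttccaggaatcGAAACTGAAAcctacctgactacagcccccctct
Tgtp2, chr11:49064249-49064306, minus strand: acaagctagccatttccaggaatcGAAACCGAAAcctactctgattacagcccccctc
Irgm1, chr11:48871428-48871457, minus strand: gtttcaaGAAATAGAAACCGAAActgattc
Irgm2, chr11:58214889-58214946, plus strand: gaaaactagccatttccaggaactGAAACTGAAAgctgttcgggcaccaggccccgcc
Igtp, chr11:58199498-58199555, plus strand: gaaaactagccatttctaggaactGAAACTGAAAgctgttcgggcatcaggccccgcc
Gbp2, chr3:142620594-142620623, plus strand: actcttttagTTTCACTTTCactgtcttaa
Gbp3, chr3:142559975-142560025, plus strand: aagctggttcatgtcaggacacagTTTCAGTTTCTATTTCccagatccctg
A motif match describes these letters and is not evidence of binding.

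Gm4841, BC023105 and Iigp1 lie on chromosome 18 of mm10 (GRCm38). Gm4841 (ENSMUSG00000068606.6) spans 60268305 to 60273272 on the minus strand, Iigp1 (ENSMUSG00000054072.12) spans 60376027 to 60392634 on the plus strand and BC023105 (ENSMUSG00000063388.5) spans 60441765 to 60442980 on the plus strand. BC023105 is annotated as a processed pseudogene with a single exon of 1216 bases. Tgtp1 (48985327 to 48994172), Tgtp2 (49057194 to 49064206), Irgm1 (48861968 to 48871683), Igtp (58199556 to 58207591) and Irgm2 (58199618 to 58222782) lie on chromosome 11. Gbp2 (142620602 to 142638008) and Gbp3 (142560026 to 142573209) lie on chromosome 3.

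Reads were 50 bases long, so any stretch of 50 bases that occurs in the transcripts of another gene cannot be assigned to 1 gene. Tgtp1 and Tgtp2 are 99.8% identical over 2811 bases, and 81.2% of the 50-base words of Tgtp1 and 86.6% of those of Tgtp2 also occur in another annotated gene. Their separate values are uncertain. Gm4841 and BC023105 are 94.4% identical over 1215 bases but share only 171 words, which is 6.15% of the 2780 words of Gm4841 and 14.7% of the 1167 words of BC023105. With all other genes together Gm4841 shared 262 words (9.42%) on the same strand and 100 (3.60%) on the opposite strand. Irgm2 and Igtp share 243 words, 6.79% of the words of Irgm2 and 11.8% of those of Igtp, and their annotated spans overlap by 7974 bases on the same strand. Iigp1 matches Gm4951, Gbp3 matches Gbp7 and Gbp2 matches Gbp2b, named after its values were seen, in 1.47%, 3.75% and 2.03% of their words. Irgm1 shared 0.310% of its words with other genes on the same strand and 0.379% on the opposite strand.

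**Figure D1:**
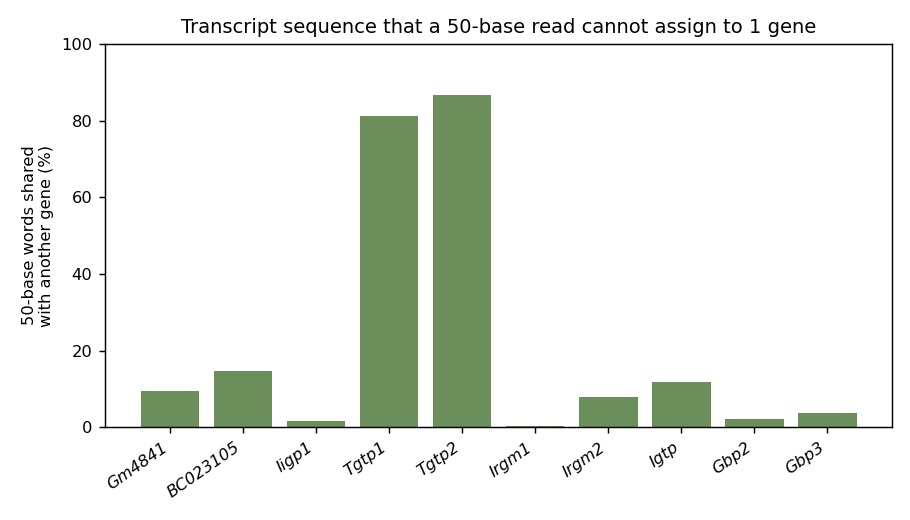
Share of the 50-base words in the annotated transcripts of each member (percent, bars from 0) that also occur on the same strand in a transcript of another gene. Tgtp1 (81.2%) and Tgtp2 (86.6%) stand far above the other 8 members, of which BC023105 has the highest share at 14.7%.

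Gm4841 and BC023105 were lower in TSK skin than in WT skin, and the other 8 members overlapped between the groups on CPM by library total, where 2.58% of all tested genes were lower without overlap. Gm4841, an IRG gene of which RefSeq gives Ifgga3 as another name, was at 37.0, 23.5 and 33.2 CPM in WT 1, WT 2 and WT 3, and at 8.03, 4.07 and 9.53 CPM in TSK 1, TSK 2 and TSK 3. The lowest WT library was above the highest TSK library. The means were 31.3 ± 6.95 CPM in WT and 7.21 ± 2.82 CPM in TSK (SD, n = 3), a log2 fold change of -2.38 (SE 0.28, TSK minus WT, from the edgeR fit across all genes). Fewer cells of a type and less RNA per cell cannot be told apart in bulk skin.

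BC023105, the pseudogene copy, was at 41.8, 32.2 and 50.2 CPM in WT 1, WT 2 and WT 3 and at 14.2, 7.14 and 10.5 CPM in TSK 1, TSK 2 and TSK 3. The groups did not overlap, and the log2 fold change was -2.23 (SE 0.27). Summing Gm4841 and BC023105, which removes any effect of how reads were split between them, gave 72.7 ± 14.8 CPM in WT and 17.8 ± 5.84 CPM in TSK and a log2 fold change of -2.29 (SE 0.26). Within a library the ratio of Gm4841 to BC023105 counts was 0.885, 0.730 and 0.662 in WT and 0.565, 0.570 and 0.907 in TSK, so the ratio overlapped between the groups.

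Of the 9 members that passed the filter on low counts and entered the fit, 2 were lower past the thresholds of the study (adjusted p below 0.01 and a fold above 2.5), where 0.0351% of the 19971 genes tested were. The same 2 were lower at an adjusted p below 0.05, against 0.681% of all genes, and 0 members were higher, against 2.71%. These counts and shares are a description, since this contrast chose Gm4841, and nothing is read from them. Without 1 library, 0 (without WT 1, WT 2, WT 3 or TSK 3) or 1 (without TSK 1 or TSK 2) of the pair stayed past the thresholds of the study, while the log2 fold change of Gm4841 stayed between -2.61 and -2.09 and that of BC023105 between -2.54 and -2.01.

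**Figure D2:**
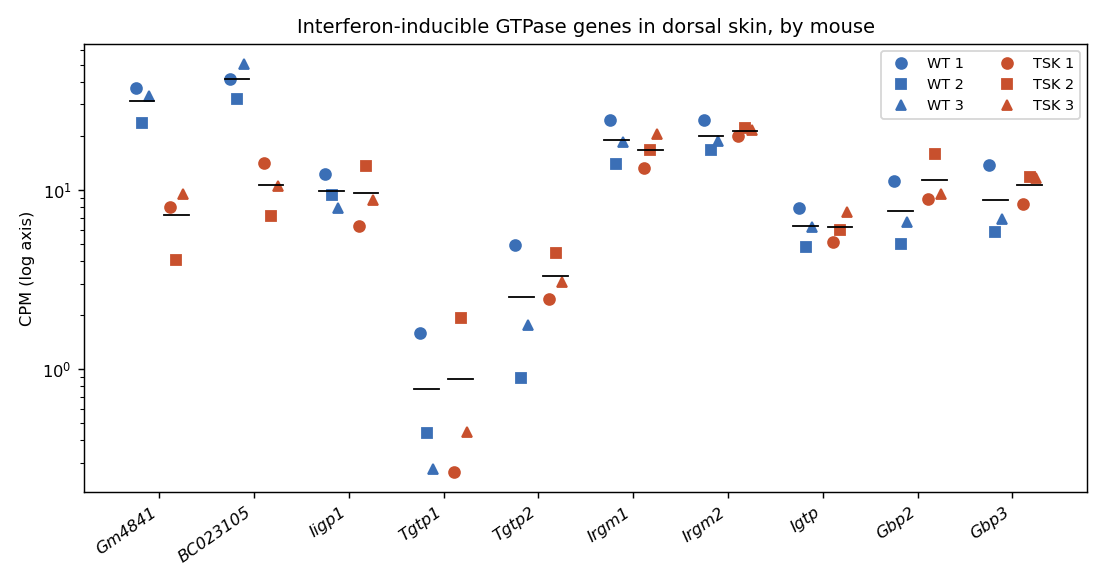
CPM of each of the 10 members (log axis) in the 3 WT (blue) and 3 TSK (red) libraries, with a marker shape for the replicate number and a black line at the group mean. Gm4841 and BC023105 separate, with WT libraries at 23.5 to 50.2 CPM and TSK libraries at 4.07 to 14.2 CPM, and the groups overlap for the other 8 members.

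The effector Iigp1, which lies between Gm4841 and BC023105, was at 12.3, 9.37 and 7.89 CPM in WT 1, WT 2 and WT 3 and at 6.32, 13.6 and 8.78 CPM in TSK 1, TSK 2 and TSK 3. The groups overlapped, and the highest and the lowest of the 6 libraries were both TSK. The log2 fold change was -0.31 (SE 0.26), with -0.10 without TSK 1, -0.65 without TSK 2 and -0.04 with library size only. Gm4841 and Iigp1 were 72.1% identical over 933 aligned bases. The ratio of Gm4841 to Iigp1 counts, which needs no scaling between libraries, was 3.02, 2.51 and 4.21 in WT and 1.27, 0.299 and 1.09 in TSK, without overlap. The ratio of BC023105 to Iigp1 was also lower in every TSK library, at 4.403 ± 1.70 in WT and 1.32 ± 0.868 in TSK (SD, n = 3).

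Tgtp1 and Tgtp2, the other effectors, were the members with the least RNA. Tgtp1 was at 1.59, 0.441 and 0.277 CPM in WT 1, WT 2 and WT 3 and at 0.267, 1.93 and 0.446 CPM in TSK 1, TSK 2 and TSK 3. It did not pass the filter on low counts and did not enter the fit, and 3 counts in a library correspond to 0.156 to 0.171 CPM. Tgtp2 was at 4.90, 0.893 and 1.75 CPM in WT and at 2.47, 4.45 and 3.05 CPM in TSK (log2 fold change 0.18, SE 0.48), and its log2 fold change was 0.98 without WT 1, -0.17 without WT 2 and -0.07 without TSK 2. Both genes were highest in WT 1 and TSK 2. Their sum, the safer value for copies this alike, was 3.28 ± 2.80 CPM in WT and 4.201 ± 1.92 CPM in TSK (log2 fold change 0.14, SE 0.50), with overlap.

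The groups overlapped on the CPM scale for all 3 regulatory genes. Irgm1 was at 24.4, 14.02 and 18.6 CPM in WT 1, WT 2 and WT 3 and at 13.3, 16.6 and 20.4 CPM in TSK 1, TSK 2 and TSK 3 (log2 fold change -0.44, SE 0.18). Irgm2 was at 24.7, 16.8 and 18.7 CPM in WT and at 20.1, 22.2 and 21.7 CPM in TSK. It overlapped on the CPM scale, its mean being higher in TSK, but was lower in every TSK library after TMM scaling, with a log2 fold change of -0.18 (SE 0.12) that turned to 0.09 when only library size was used. Igtp was at 7.90, 4.81 and 6.17 CPM in WT and at 5.14, 5.98 and 7.51 CPM in TSK, with overlap on both scales (log2 fold change -0.28, SE 0.19). With library size only, Irgm1 and Igtp had log2 fold changes of -0.18 and -0.01, and without WT 1 those of Irgm1, Irgm2 and Igtp were -0.30, -0.08 and -0.16. Irgm2 and Igtp summed, as their spans overlap, were at 26.3 ± 5.65 CPM in WT and 27.5 ± 2.09 CPM in TSK, with a fitted log2 fold change of -0.20 (SE 0.12).

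Set against Irgm1, Gm4841 gave count ratios of 1.52, 1.68 and 1.79 in WT and 0.606, 0.245 and 0.468 in TSK. The WT values lay close together and none came near the TSK values. BC023105 against Irgm1 gave 2.24 ± 0.499 in WT and 0.673 ± 0.349 in TSK (SD, n = 3), again without overlap.

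Gbp2 was at 11.3, 5.003 and 6.597 CPM in WT 1, WT 2 and WT 3 and at 8.85, 15.9 and 9.49 CPM in TSK 1, TSK 2 and TSK 3. Its log2 fold change was 0.33 (SE 0.28), with 0.03 without TSK 2 and 0.63 without WT 1. Gbp3 was at 13.7, 5.83 and 6.88 CPM in WT and at 8.36, 11.7 and 11.7 CPM in TSK (log2 fold change 0.02, SE 0.26). In both genes WT 1 lay among or above the TSK libraries while WT 2 and WT 3 lay below all of them. The sign for Gbp3 depended on the libraries, with log2 fold changes from -0.14 to 0.39 when 1 was left out.

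The 7 fitted members other than the pair had log2 fold changes between -0.44 and 0.33, with a median of -0.18, where all tested genes had a median of -0.03. With library size as the only scaling that median was 0.09 and the median of all genes was 0.25. On TMM-scaled values 3 members did not overlap, all of them lower in TSK (Gm4841, BC023105 and Irgm2), where 10.6% of all tested genes were lower without overlap, and 0 were higher without overlap, where 14.1% were. On CPM by library total the counts were 2 lower, against 2.58%, and 0 higher, against 29.1%.

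**Figure D3:**
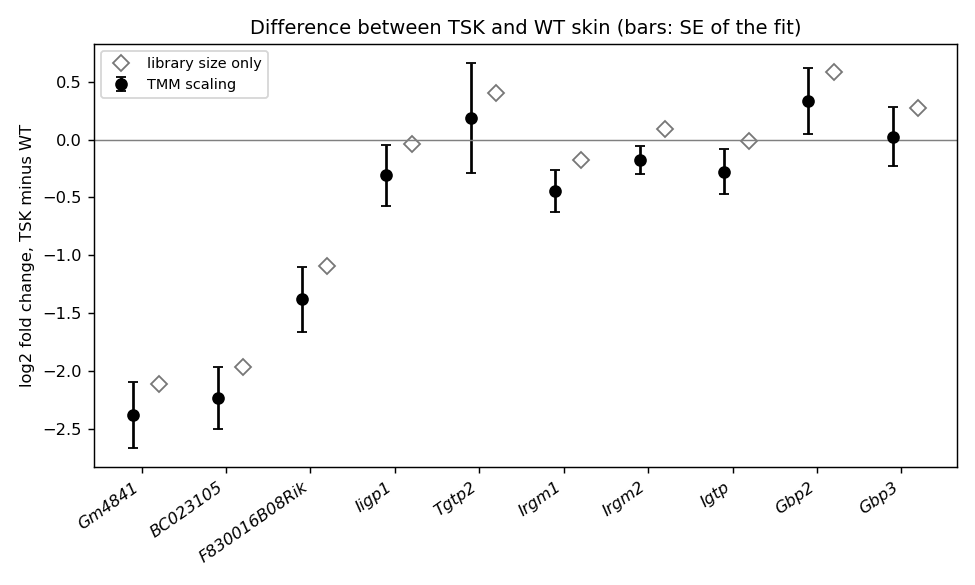
Log2 fold change (TSK minus WT) of the 9 fitted members and of F830016B08Rik, a gene beside Gm4841. Black points with SE bars are the edgeR fit with TMM scaling and open diamonds use library size only. Gm4841 (-2.38) and BC023105 (-2.23) lie apart from the other 7 members (-0.44 to 0.33), with F830016B08Rik (-1.38) between them, under either scaling.

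Per kilobase of exon, BC023105 had the highest level in WT skin, at 34.1 ± 7.38 CPM per kb, followed by Gm4841 at 11.01 ± 2.45 and Irgm2 at 5.43 ± 1.12. Irgm1, Igtp, Gbp2 and Gbp3 followed at 3.27, 3.11, 3.03 and 2.70 CPM per kb and did not differ beyond their SD. Iigp1 stood at 1.69 ± 0.383, Tgtp2 at 0.856 ± 0.718 and Tgtp1 at 0.240 ± 0.223 CPM per kb. In TSK skin Gm4841 was at 2.54 ± 0.993 CPM per kb, below Irgm2 (5.78 ± 0.307), Gbp2 (4.53 ± 1.54), Gbp3 (3.25 ± 0.594), Igtp (3.07 ± 0.594) and Irgm1 (2.88 ± 0.613), and it did not differ from the last 3 of these beyond its SD. BC023105 kept the highest mean in TSK, 8.74 ± 2.91 CPM per kb, which exceeded that of Irgm2 by about the SD of BC023105.

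The mice of 1 genotype also differed. Among WT libraries, WT 1 was the highest for all 8 other members on CPM and also for Gm4841, while BC023105 was highest in WT 3. WT 2 was the lowest WT library for both genes of the pair and for 6 of the other 8. Among TSK libraries, TSK 2 was the lowest for both Gm4841 and BC023105 but the highest for 6 of the other 8 members, and TSK 1 was the lowest for all 8. In TSK 2 the ratio of Gm4841 to Iigp1, 0.299, was accordingly the lowest of the 6. With 3 mice per group this order is a description.

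**Figure D4:**
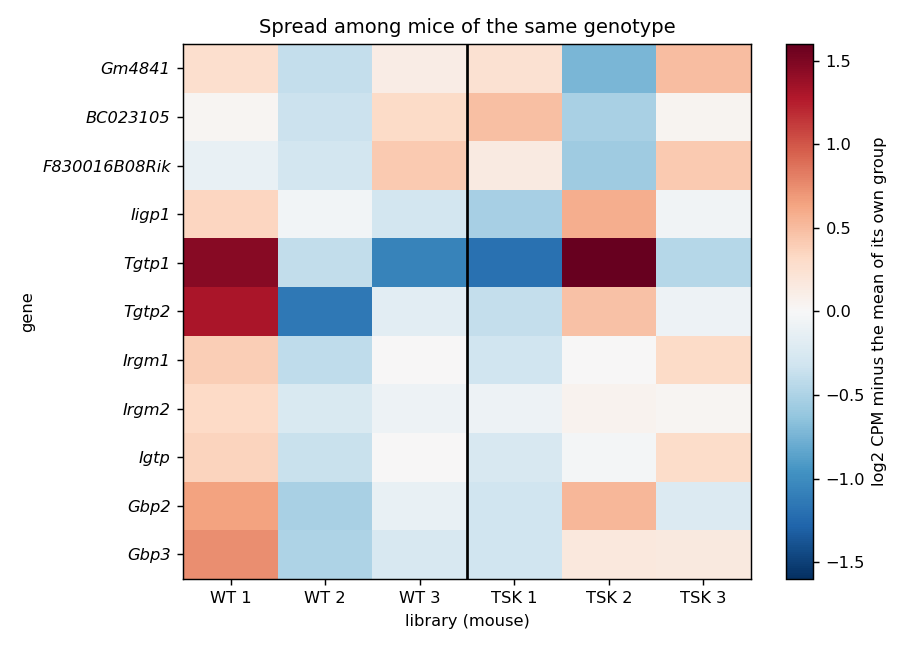
Log2 CPM of each member and of F830016B08Rik in every library after the mean of its own genotype was subtracted (red above, blue below), with a line between the WT and TSK libraries. TSK 2 is blue for Gm4841, BC023105 and F830016B08Rik (-0.74, -0.52 and -0.57) and red for Iigp1, Tgtp1, Tgtp2 and Gbp2, while WT 1 is red for all 10 members (0.27 for Gm4841 and 0.04 for BC023105).

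Other genes were taken from lists of the interferon system and from 1 list for the attachment of ATG8 proteins to membranes. With the 10 genes of the ATG8 list, these 8 lists hold 104 genes, of which 95 were tested. In the edgeR fit 0 were higher and 1 was lower at an adjusted p below 0.05 (background 2.71% higher and 0.681% lower), and at an unadjusted p below 0.05 there were 8 higher and 16 lower, against 12.1% and 7.90% of all genes. The ATG8 list gave 1 of these 8 and 1 of these 16. Over all 8 lists DESeq2 called 5 higher and 8 lower. Without WT 1, edgeR called 3 higher and 3 lower, and without WT 3, TSK 1 or TSK 3 it called 0 in either direction. The gene called lower was F830016B08Rik, an IRG gene on chromosome 18 whose start lies 20107 bases beyond the end of Gm4841. It was at 94.7, 84.1 and 138 CPM in WT 1, WT 2 and WT 3 and at 52.5, 32.0 and 63.7 CPM in TSK 1, TSK 2 and TSK 3. The groups did not overlap, and it fell in TSK with a log2 fold change of -1.38 (SE 0.28) and an adjusted p of 0.0369 (edgeR quasi-likelihood test, Benjamini-Hochberg). Leaving out WT 2, WT 3, TSK 1, TSK 2 or TSK 3 raised the adjusted p of edgeR to 0.0676, 0.137, 0.0718, 0.0616 and 0.0578, and leaving out WT 1 gave 0.0317.

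F830016B08Rik was 75.7% identical to Gm4841 over 1665 bases and shared 1.66% of its 50-base words with other genes on the same strand and 1.75% on the opposite strand. The ratio of Gm4841 to F830016B08Rik was 0.391, 0.280 and 0.240 in WT and 0.153, 0.127 and 0.1496 in TSK, lower in every TSK library. The ratio of F830016B08Rik to Iigp1 overlapped, at 11.4 ± 5.34 in WT and 5.97 ± 3.18 in TSK (SD, n = 3). Gm4951, the IRG gene at the far end of this stretch of chromosome 18, was at 3.18, 1.29 and 2.08 CPM in WT and at 2.23, 3.95 and 4.02 CPM in TSK (log2 fold change 0.39, SE 0.32), with overlap. Along the 230901 bases from Gm4951 to BC023105, then, genes with lower values in TSK (Gm4841, F830016B08Rik and BC023105) lay among genes whose groups overlapped (Gm4951 and Iigp1).

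Of the remaining IRG genes 0 were called, and the 8 tested in that list, F830016B08Rik included, had a median log2 fold change of 0.13 (0.41 with library size only, and -0.03 to 0.27 without 1 library). The most abundant, 9930111J21Rik2 and Irgq, had log2 fold changes of 0.23 (SE 0.20) and 0.04 (SE 0.12). The 8 tested GBP genes outside the set had a median of -0.08 (0.39 without WT 1) and 0 calls. Gbp7 had the most RNA among them, with a log2 fold change of -0.22 (SE 0.17). The giant GTPases Gvin1 and Gm4070 and the antiviral Mx1 had values of 0.13 (SE 0.22), 0.37 (SE 0.26) and -0.77 (SE 0.25), and 0 of the 6 tested genes of that list were called (median -0.14, and 0.33 without WT 1).

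The ligands were at or near the detection limit. Ifng, Ifna1 and Ifnb1, named here after their values were seen, had 0 counts in all 6 libraries, which allows up to 0.171 CPM in a library. The receptor genes Ifngr1, for interferon-gamma, and Ifnar1, for type I interferon, had log2 fold changes of 0.35 (SE 0.11) and 0.40 (SE 0.14), without overlap between the groups, and adjusted p-values of 0.131 and 0.1504 in edgeR. Of all tested genes 29.1% were higher without overlap on CPM by library total and 14.1% on TMM-scaled values. Ifngr2, the other chain of the interferon-gamma receptor, had a value of -0.27 (SE 0.15) with overlap. The kinases Jak1, Jak2 and Tyk2 had values of -0.22 (SE 0.14), -0.31 (SE 0.17) and -0.01 (SE 0.13).

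Genes known as interferon-gamma targets and genes of the type I response had medians of opposite sign, 0.45 and -0.26 with library size only. The median of all tested genes was 0.25 on that scaling and -0.03 with TMM. Of the 23 tested interferon-gamma targets 15 had a log2 fold change above 0, with a median of 0.20 (0.06 to 0.41 without 1 library) and 0 calls. At an unadjusted p below 0.05 in edgeR 5 of them were higher and 2 lower, against 12.1% and 7.90% of all genes. The class I genes H2-D1, H2-K1 and B2m had values of 0.16 (SE 0.18), -0.01 (SE 0.19) and 0.32 (SE 0.26). Cd74, the invariant chain of class II molecules, was at 121, 49.6 and 95.2 CPM in WT and at 171, 185 and 243 CPM in TSK, without overlap (log2 fold change 0.93, SE 0.25, adjusted p = 0.0842 in edgeR). On this CPM scale 29.1% of all tested genes were higher without overlap. Of the 24 type I response genes 23 had a log2 fold change below 0, with a median of -0.49 and 0 calls, and that median was -0.14 without WT 1. At an unadjusted p below 0.05 in edgeR 8 of the 24 were lower and 0 higher, against 7.90% and 12.1% of all genes. WT 1 had the highest value of the WT libraries for 23 of these 24 genes, and their summed level was 394 CPM in WT 1, 164 and 218 CPM in the other WT libraries and 187 to 270 CPM in TSK. WT 1 was likewise the highest WT library for 24 of 25 interferon-gamma targets, whose median was 0.41 without it. Without WT 1 the pair on chromosome 18 had log2 fold changes of -2.31 (Gm4841) and -2.28 (BC023105), and 0 of the pair stayed past the thresholds of the study. The part of WT 1 in the values of the pair was not tested beyond this.

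**Figure D5:**
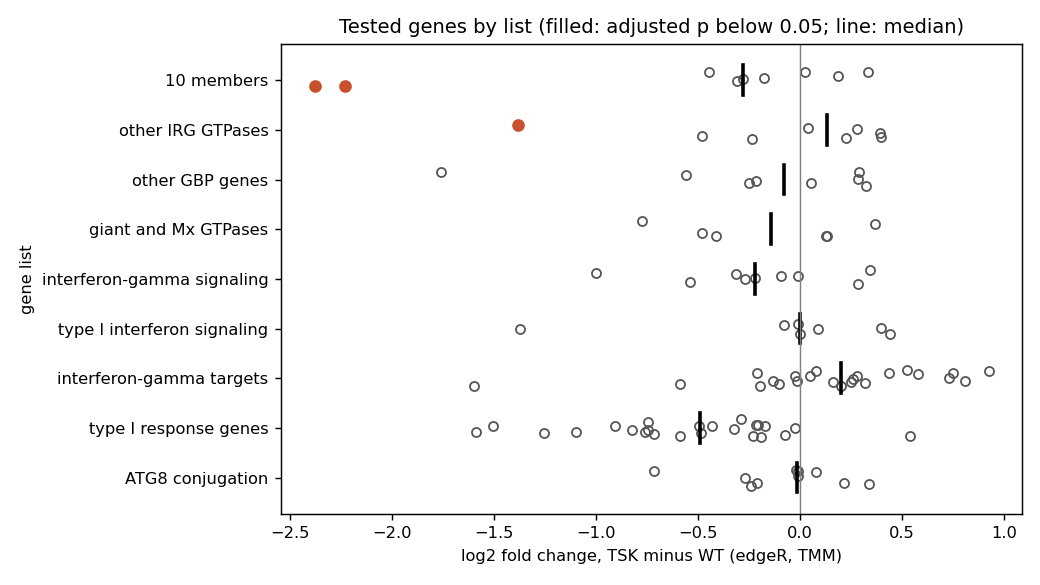
Log2 fold change (TSK minus WT, edgeR with TMM) of every tested gene of the set and of the 8 other lists, with a black line at the median of each. Filled points have an adjusted p below 0.05: Gm4841 and BC023105 among the members, shown as a description, and F830016B08Rik among the other IRG genes.

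Markers of other cell types were read beside the members. Summed over each list of markers, macrophage genes (9 genes) ran from 238 to 375 CPM in WT and 443 to 1234 CPM in TSK, endothelial genes (6) from 108 to 133 and 183 to 336, fibroblast genes (6) from 6323 to 9623 and 20330 to 47270, and adipocyte genes (5) from 92.0 to 125 and 290 to 1845. The sums of these 4 lists were higher in TSK without overlap, where 29.1% of all tested genes were on this scale. Of their genes edgeR called 0 of 9, 1 of 6, 0 of 6 and 2 of 5 higher at an adjusted p below 0.05. The sum of the skeletal muscle genes (6, of which 0 were called) was lower in TSK without overlap, at 13.4% to 19.3% of all counts in WT and 11.6% to 13.1% in TSK. T and NK cell genes (11), the cells that make interferon-gamma, overlapped at 12.1 to 20.7 and 19.5 to 21.8 CPM, as did neutrophil genes (6; 6.603 to 11.6 and 5.17 to 8.69 CPM, with Ly6g at 0) and keratinocyte genes (6; 2823 to 5572 and 3173 to 5587 CPM). In the keratinocyte list edgeR called 1 gene higher, past the thresholds of the study (adjusted p = 0.00913), while 4 of the 6 had a log2 fold change below 0. In the T and NK cell list and the neutrophil list 0 were called. The part of these markers in the values of Gm4841 and BC023105 was not tested.

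Among 17606 genes with a mean of at least 1 CPM, those whose TMM-scaled log2 CPM ran most like Gm4841 over the 6 libraries were Serpinb1a (Pearson r = 0.997), Snhg4 (0.997), Papolg (0.996), Gm47628 (0.996) and Cacfd1 (0.994). Serpinb1a, a gene of an intracellular inhibitor of neutrophil proteases, was at 92.8, 66.1 and 94.4 CPM in WT and at 40.0, 25.4 and 43.9 CPM in TSK. A high r does not give the size of a difference. The log2 fold change was -1.48 for Serpinb1a and -0.51, -0.32, -0.79 and -0.42 for Snhg4, Papolg, Gm47628 and Cacfd1, against -2.38 for Gm4841. BC023105 ranked 32 (r = 0.979) and F830016B08Rik 92 (r = 0.959) in likeness to Gm4841, while Irgm1, Irgm2 and Igtp had r = 0.753, 0.697 and 0.687, Iigp1 0.238, Gbp3 -0.122, Tgtp2 -0.316 and Gbp2 -0.549. The 6 points of each correlation share their libraries, and the difference between the groups is part of it.

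The same ranking was made for Irgm1 and Gbp2. For Irgm1 the 5 most similar genes were 4930523C07Rik, Gm47050, Gm45486, Gm38218 and Cd300lf (r = 0.982 to 0.987), and Igtp ranked next (r = 0.982). For Gbp2 they were Itgb1bp1, Bri3, Ifi27l2a, Cep83os and Rgs2 (r = 0.978 to 0.994), with Tgtp2 at rank 109 (r = 0.901). Ifi27l2a is itself an interferon-induced gene, at 30.5, 7.98 and 10.2 CPM in WT and 15.8, 46.7 and 19.9 CPM in TSK.

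Depth was even. Totals were 17561453 to 19219814 counts per library, with 30448 to 31812 genes read in each. No pair of libraries of 1 genotype was alike enough to be a repeat deposit (lowest chi-square per degree of freedom 8.04). TMM gave scaling factors of 0.823 to 1.03 for the WT libraries and 1.06 to 1.13 for the TSK libraries.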

How the data were processed

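Total RNA of dorsal skin was depleted of ribosomal RNA and sequenced by the authors as stranded single-end reads of 50 bases, aligned with STAR to mm10 and quantified in Partek 11.0, per the submitters' processing notes and methods. Whether counting used strand is not given in the sources used here. The authors deposited an estimated count per gene, in a table named as raw, made by Partek from the aligned reads, and CPM made from library totals. Of the non-zero estimated counts 43.3% to 45.4% per library were whole (within 0.001). CPM in the text is each estimated count over its library total, which keeps true zeros and matched the deposited CPM (median ratio 0.9999 to 1.0002). The planned test of counts was kept after rounding.

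All 6 libraries entered edgeR 4.0.16 (R 4.3.3) quasi-likelihood tests with TMM and filterByExpr (19971 genes), without covariates, adjusted by Benjamini-Hochberg. Called meant adjusted p below 0.01 with a fold above 2.5, or adjusted p below 0.05. Members and lists were chosen with earlier results of these data known. Named genes were all members, list genes called at 0.05, up to 4 of the most abundant per list, the 5 most alike to Gm4841, Irgm1 and Gbp2, and up to 2 genes per member that match its transcripts over 50 bases or more at 95% identity or more (Gm4951 for Iigp1). Transcripts and exon lengths were taken from GENCODE M21, which is not the annotation the authors counted with (Ensembl release 100), and transcripts were compared by 50-base words and BLAST 2.17.0. Alternatives used DESeq2 1.42.0, limma 3.58.1, other scalings and filters, summed near copies and each library left out. The fits were tested on simulated counts with the dispersions of the edgeR fit, at an adjusted p below 0.05. There edgeR recovered 182 of 197 changed genes with 17 false calls, DESeq2 185 of 200 with 43, and limma-voom 180 of 197 with 15. The limit from 0 or 3 counts covers counting error only.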

Additional observations from a re-analysis of the deposited data

How the results depend on the processing

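Gm4841 had log2 fold changes of -2.61 to -2.02 and BC023105 of -2.54 to -1.89 over all alternatives. Both stayed past the thresholds of the study (2 members) with DESeq2, other scalings, other filters, limma-trend and rounding down, but 0 did with limma-voom and 0 to 1 without 1 library. Summing members that share 50-base words left 1, by construction, an alternative chosen after seeing the data. Signs turned for Irgm2 (-0.22 to 0.11), Gbp3 (-0.14 to 0.39) and Tgtp2 (-0.17 to 0.98). F830016B08Rik kept its direction throughout and its adjusted p ran from 7.06e-05 (DESeq2) to 0.137.

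Pathway genes are here those of the 8 lists, the ATG8 list included. Pathway genes lower at an adjusted p below 0.05 (1) were 8 with DESeq2, 8 with no filter on low counts and 0 to 3 without 1 library. Those higher (0) were 5 with DESeq2, 6 with library size only, 2 with no filter, 8 with limma-trend at either pseudocount (1 or 0.1) and 0 to 3 without 1 library. Over all genes, the 7 lower past both thresholds were 65 with DESeq2, 15 with library size only, 61 with no filter, 1 with limma-voom, 14 and 15 with limma-trend at pseudocounts of 1 and 0.1, and 0 to 7 without 1 library. The 136 lower at 0.05 were 411 with DESeq2, 347 with no filter and 15 to 547 without 1 library. The cause was not tested.

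Same-numbered WT and TSK libraries share only a number, with correlations of their deviations of 0.01, 0.17 and -0.09. With the number as a replicate block, 3 pathway genes were lower at 0.05, 15 of all genes were lower past both thresholds, and Gm4841 and BC023105 had log2 fold changes of -2.44 and -2.27.

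With 3 mice per group, an exact permutation test of a single gene cannot go below p = 0.1. Tgtp1 was too low to test, and single values of Tgtp1 and Tgtp2 rest on how shared reads were split.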

Other observations

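The conjugation system that attaches ATG8 proteins to membranes, which in mouse cells directs the interferon-inducible GTPases to vacuoles, had 10 genes in its list. In edgeR 0 were called at an adjusted p below 0.05, while unadjusted p-values below 0.05 were found for 1 gene in each direction (background 12.1% higher and 7.90% lower), and the median log2 fold change was -0.01 (0.26 with library size only). Among the ATG8 genes themselves, Map1lc3b and Gabarap had values of -0.27 (SE 0.13) and -0.02 (SE 0.12), with Gabarapl2 at -0.21 (SE 0.19). Gabarapl1, named after its values were seen, was at 22.3, 19.5 and 20.2 CPM in WT and at 29.2, 36.1 and 29.7 CPM in TSK, without overlap, with a log2 fold change of 0.34 (SE 0.12, adjusted p = 0.179 in edgeR). Map1lc3a was at 74.9, 82.2 and 99.4 CPM in WT and at 66.4, 70.2 and 54.3 CPM in TSK, without overlap, with a log2 fold change of -0.72 (SE 0.19, adjusted p = 0.0769 in edgeR). Of all tested genes 29.1% were higher and 2.58% lower without overlap on CPM by library total, and 14.1% and 10.6% on TMM-scaled values.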
